A study of Mus musculus with 16 samples.

Results

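The set described here holds the protein-coding genes for the proteins of the cytoplasmic ribosome. Members were chosen by symbol: Rpl or Rps, followed by a number with an optional p before it and up to 2 of the letters a, l and x after it, or by the letter a alone (Rpsa). The choice used no measured value. It gave 81 genes of 26653 in the 3 tables together, 50 of the large and 31 of the small subunit. There were 81 members among 23083 genes in ESCs, 78 among 21615 in MEFs and 77 among 18288 in MKFs. Rpl24, Rpl10l and Rpl39l were listed in the ESC table alone, and Rpl3l in the ESC and MEF tables. All members listed in a table passed the filter on low values, a mean of at least 1.

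Each cytoplasmic ribosome pairs a small subunit, which reads the mRNA, with a large subunit, which joins amino acids. Their proteins are made in near-equal numbers and are assembled with ribosomal RNA in the nucleolus. In mammals the mRNAs of these proteins begin with a run of pyrimidines, the 5' terminal oligopyrimidine (TOP) motif, through which the kinase mTOR controls their translation, so a change in mRNA need not be a change in protein.

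The study compared, in 3 mouse cell types, cells in which 1 gene had been disrupted with control cells, by RNA-seq of total RNA. Embryonic stem cells (ESCs) carried an Actb knockout (KO) or a deletion of the full Actb locus (LD), or were wild type (WT). Mouse embryonic fibroblasts (MEFs) carried an Actg1 KO or an Actg1 LD, or were WT. Mouse kidney fibroblasts (MKFs) carried a KO of the Kindlin-2 gene, Fermt2, against cells with the floxed gene. Each of the 8 groups had 2 libraries. The labels name neither the lesion of a KO nor the clones, and do not say whether the 2 libraries are separate cultures, so the p-values measure the spread between libraries, which may be technical. The design text names transcriptional adaptation as the subject, and no comparison was aimed at ribosomal proteins.

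The deposited values are normalised read counts in whole numbers, and each table was normalised separately. They summed to between 15565648 and 22094490 per library. Each disrupted gene was lower in its mutants than in controls, and none was at 0. Actb was at 23650 and 22707 in KO, 2372 and 2336 in LD, and 36364 and 34140 in WT ESCs. Actg1 was at 1004 and 1026 in KO, 25 and 15 in LD, and 5737 and 5672 in WT MEFs. Fermt2 was at 1251 and 1240 in KO, against 3078 and 3142 in floxed MKFs. The mean was 6.678 percent of WT for Actb in LD ESCs and 40.05 percent of the floxed mean for Fermt2 in KO MKFs, and the source of these remaining counts was not tested. The 10 ESC markers summed to 66179 and 67524 in KO, 69492 and 66398 in LD, and 61772 and 62698 in WT ESCs. The 10 fibroblast markers summed to 263143 and 278010 in KO, 83382 and 88579 in LD, and 102040 and 91113 in WT MEFs. Markers of other cell types differed in MEFs too. The 4 neural markers listed summed to 1921 and 1925 in KO, 2674 and 3183 in LD, and 5428 and 5532 in WT MEFs. The 4 ESC markers listed summed to 2277 and 2284 in KO, 475 and 545 in LD, and 1925 and 1827 in WT MEFs, with Sox2 at 0 in LD. The part of these markers in the results on ribosomal protein genes was not tested. In the MKFs only 6 of the 10 fibroblast markers were in the table, and they summed to 24757 and 28536 in KO, against 50534 and 50782 in floxed cells. The 6 epithelial markers summed to 19815 and 20318 in KO, against 2046 and 2190 in floxed MKFs, where Krt5 was at 0. In bulk RNA, a change in the kinds of cells present and a change of RNA per cell cannot be told apart.

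Short, abundant and old, these genes have left many processed copies in the genome, which limits how reads can be assigned. Of the 81 members, 78 shared at least one 50-base window of their transcript with another annotated gene, and all 78 shared one with a pseudogene. The median member shared 50.7 percent of its windows. Rpl7a, a protein of the large subunit, shared windows with 120 pseudogenes, the most of any member. Counted over all 81 members, 25 overlapped a small nucleolar or micro RNA gene on the same strand, and 18 overlapped a gene on the opposite strand. Same-strand overlaps with genes of other kinds are not in this count, such as that of Rpl24 with Gm28037 over 484 exon bases. Some pseudogenes carry -ps in an Rpl or Rps symbol, and 105 of these were listed in ESCs, 95 in MEFs and 43 in MKFs. They summed to 0.177 to 0.459 percent of the members' sum in a library. Pseudogenes under other symbols were not counted, so the sum over all of them is not known here. How reads with several equally good places were counted is not given in the sources used here, so levels of single members are uncertain, and Rpl24, an essential protein of the large subunit, was listed at 0 and 5 in WT ESCs.

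Levels differed widely within the set. Divided by the length of all exons in kilobases, the median member stood at 1384 in WT ESCs, 1069 in WT MEFs and 1086 in floxed MKFs. Rplp1, an acidic protein of the stalk that recruits elongation factors, was the highest in all 3 control groups, at 41500, 44610 and 19490 per kilobase, which was 29.99, 41.71 and 17.95 times the median. In WT ESCs Rpl26 (14150 ± 2352, SD, n = 2), Rps23 (11120 ± 4123), Rpl4 (10680 ± 1768) and Rplp0 (9152 ± 298.8) came next, of which Rps23 lies at the decoding centre and Rpl4 lines the exit tunnel. The libraries of Rpl26, Rps23 and Rpl4 overlapped with their neighbours in this order, and those of Rplp1 and Rplp0 did not. In WT MEFs the next were Rpl4, Rps2, Rplp0 and Rpsa, between 13030 and 9293 per kilobase, and in floxed MKFs Rpl26, Rplp0, Rps23 and Rpl8, between 11830 and 5859.

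The lowest members included paralogues of other members. In WT ESCs these were Rpl24 (2.427 per kilobase), Rpl3l (17.35), Rpl36al (21.8), Rps28 (175.4) and Rpl13a (216.7). Rpl3l, the striated muscle paralogue of Rpl3, was at 1.522 per kilobase in WT MEFs, and Rpl36al at 12.2. Rpl13a, Rps19 and Rpl37 followed in WT MEFs at 141.7 to 219.4. In floxed MKFs the lowest were Rpl36al (5.543), Rps19, Rps15a, Rpl13a and Rps28 (172.5). The order of the 77 members in all 3 tables was alike between control groups, with Spearman coefficients of 0.918 for ESCs and MEFs, 0.933 for ESCs and MKFs, and 0.881 for MEFs and MKFs, given as a description since lengths and shared windows are common to the tables. Divided by the length of the representative transcript instead, Rpl35a moved from rank 75 to rank 53 of 81 in WT ESCs. Rplp1 was first by this length too in WT ESCs and WT MEFs, but second in floxed MKFs, at 19490, where Rpl26 was first at 28200 per kilobase of transcript.

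The share of all values that the set took was compared per library. In ESCs it was 2.314 and 1.966 percent in KO, 2.263 and 2.279 percent in LD, and 2.645 and 1.962 percent in WT libraries, which overlapped. In MEFs it was 1.355 and 1.380 percent in KO, 1.818 and 1.756 percent in LD, and 1.506 and 1.628 percent in WT libraries. The MEF groups did not overlap, with KO lowest and LD highest. In MKFs it was 1.657 and 1.601 percent in KO, against 1.571 and 1.637 percent in floxed libraries. With 2 libraries against 2, an exact two-sided permutation test cannot go below p = 0.333, and the shares gave p = 0.333 in the MEF comparisons and 0.667 to 1 in the others.

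Large and small subunit genes kept a ratio between 1.541 and 1.839 in every library. The ratio was 1.675 and 1.68 in KO, 1.541 and 1.555 in LD, and 1.74 and 1.809 in WT ESCs. In MEFs it was 1.691 and 1.701 in KO, 1.609 and 1.556 in LD, and 1.578 and 1.598 in WT libraries. In MKFs it was 1.768 and 1.752 in KO, against 1.827 and 1.839 in floxed libraries. The 2 ESC mutants and the MKF KO thus lay below their controls in both libraries and the MEF KO above, each with the smallest p the exact test allows (0.333), while LD and WT MEFs overlapped (p = 1).

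**Figure D1:**
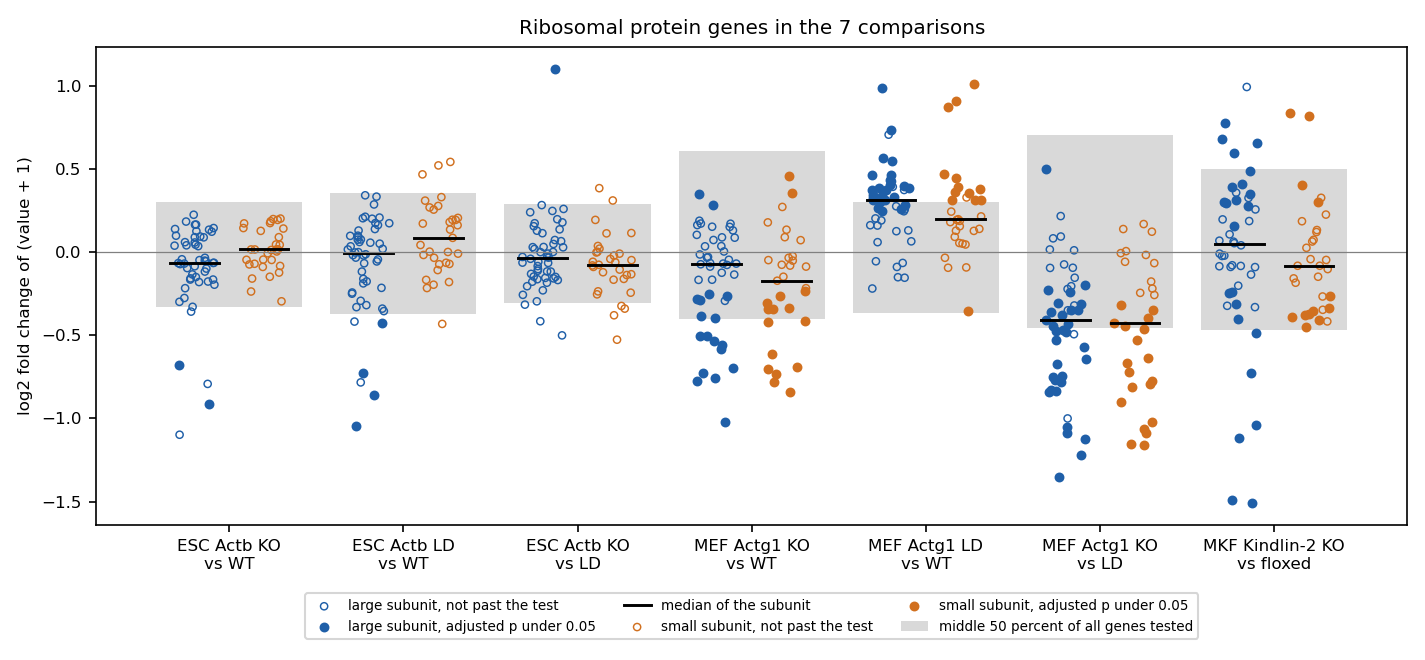
Log2 fold change of each ribosomal protein gene (vertical axis) in the 7 comparisons, large subunit in blue and small in orange, filled where limma's adjusted p was under 0.05, with a line at each subunit's median and a grey band over the middle 50 percent of all genes tested. Medians of all members lay between -0.06 and 0.00 in ESCs, at -0.09 for MEF KO, at 0.28 for MEF LD, at -0.42 for MEF KO against LD and at -0.02 in MKFs.

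In ESCs few ribosomal protein genes changed, and 2 of the 4 that did were paralogues with known roles in the testis, Rpl10l and Rpl39l. No member rose in KO against WT and 2 of 81 fell, by limma with Benjamini-Hochberg adjustment over all 23054 genes tested, against 2.44 percent of all genes that rose and 2.44 percent that fell. At an unadjusted p under 0.05, no member was higher and 4 were lower. In LD against WT no member rose and 4 fell, against 5.19 percent of all genes that rose and 6 percent that fell, and at an unadjusted p under 0.05 the counts were 3 higher and 6 lower. In KO against LD 1 rose and none fell, against 2.56 and 2.32 percent of all genes, with 1 higher and 2 lower at an unadjusted p under 0.05. The median log2 fold change of the members was -0.04 in KO, 0.00 in LD and -0.06 in KO against LD, and their SD was 0.23, 0.29 and 0.22, where that of all genes was 0.70, 0.78 and 0.69. Without limma's variance trend 0 members fell in KO and 1 in LD, where the genes that fell over the whole table numbered 54 and 348.

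Rpl10l, the retrogene copy of the X-linked Rpl10 known for its role in male germ cells, was at 237 and 259 in KO, 279 and 284 in LD, and 501 and 435 in WT ESCs. It was lower in both libraries of each mutant, with log2 fold changes of -0.91 ± 0.13 (SE; limma's adjusted p = 0.00911) in KO and -0.73 ± 0.13 (adjusted p = 0.0115) in LD. Rpl39l, the testis-enriched copy of Rpl39, was at 283 and 257 in KO, 131 and 119 in LD, and 253 and 265 in WT ESCs. LD alone stood apart. Its log2 fold change was -1.05 ± 0.14 in LD against WT (adjusted p = 0.0035) and 1.10 ± 0.14 in KO against LD (adjusted p = 0.0053), and Rpl39l shared no transcript window with another gene. Rpl5, which binds 5S ribosomal RNA and the p53 regulator Mdm2, was at 8252 and 8312 in LD, against 10690 and 11549 in WT ESCs, with a log2 fold change of -0.42 ± 0.09 (adjusted p = 0.0231).

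Rpl13, a protein of the large subunit, was at 4228 and 3527 in KO, 3177 and 3655 in LD, and 6293 and 6077 in WT ESCs. It was lower in every mutant library, by -0.68 ± 0.12 in KO (limma's adjusted p = 0.0196) and -0.86 ± 0.12 in LD (adjusted p = 0.00398). Rpl13 lies on chromosome 8, where the 556 other protein-coding genes averaging 50 or more had a median log2 fold change of -0.34 in KO and -0.41 in LD. With each library centred on the median of each chromosome's other genes, an alternative chosen after seeing the data, Rpl13 stood at -0.35 in KO (adjusted p = 0.16) and -0.45 in LD (adjusted p = 0.0445). Without any 1 of the 4 libraries of a comparison (KO 1, KO 2, LD 1, LD 2, WT 1 or WT 2), no member passed the test in any of the 3 ESC comparisons. Over all 23054 genes the test then passed at most 4 that rose and 0 that fell in KO, where it had been 563 each, and at most 143 and 196 in LD and 24 and 4 in KO against LD. Calls were thus lost over the whole table as well.

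The 2 libraries of the WT and of the KO ESC group differed more for this set than the groups did. Among members with a mean of at least 100, the log2 ratio of library 1 over library 2 had a median of 0.31 in KO, -0.03 in LD and 0.55 in WT ESCs. Library 1 was higher for 66 of 78 members in KO, 36 in LD and 75 in WT. The largest ratios were 2.23 for Rpl23a in KO and 2.18 for Rpl37 in WT. Among abundant protein-coding genes outside the set (mean of at least 1000), the same median was 0.02 in KO, -0.01 in LD and 0.01 in WT, and among those with transcripts under 1500 bases it was 0.16, -0.04 and 0.27. Taken by library number, the median difference of the members was -0.13 for KO 1 minus WT 1 and 0.07 for KO 2 minus WT 2, and it was -0.29 for LD 1 minus WT 1 and 0.32 for LD 2 minus WT 2. The direction of the members as a set therefore turned with the library, and RNA quality was not measured here. With the library number as a block, 0 members rose and 3 fell in KO, 3 rose and 5 fell in LD, and 1 rose and 1 fell in KO against LD. Over all 23054 genes 921 rose and 929 fell in KO in that fit. The counts were 1784 and 1943 in LD, and 909 and 826 in KO against LD, so calls grew over the whole table.

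**Figure D2:**
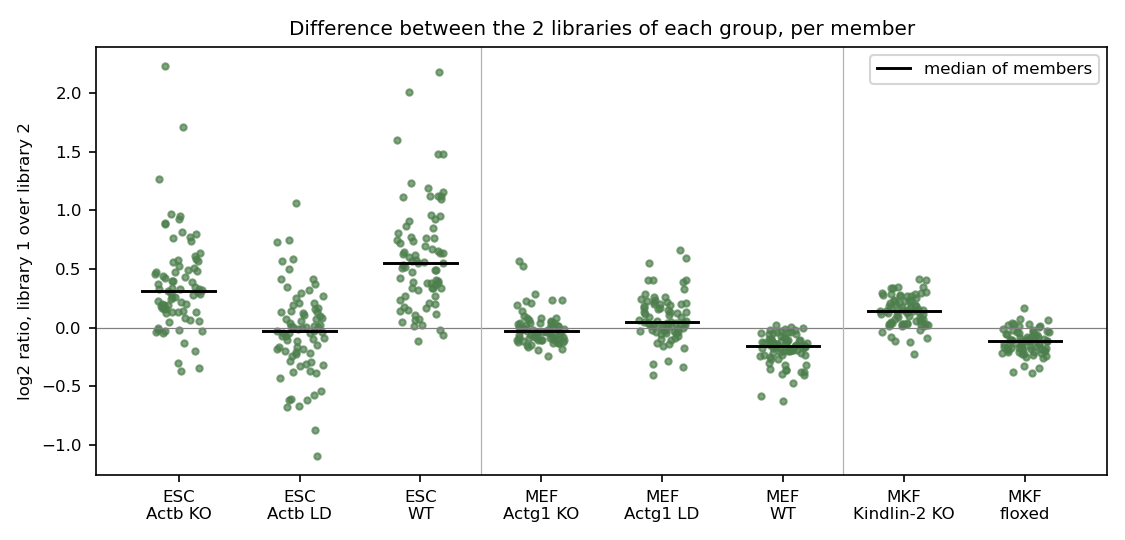
Log2 ratio of library 1 over library 2 (vertical axis) for each member with a mean of at least 100 in the 8 groups, with a line at the median of the members. The WT and KO ESC groups lie above 0, with medians of 0.55 and 0.31, and all other medians lie between -0.16 and 0.14.

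Before the fibroblasts are described, a property of those libraries has to be given, since it moves with the members. In MEFs and MKFs the fold change of a gene went with its chromosome. The median log2 fold change of the other protein-coding genes of a chromosome ran from -0.86 on chromosome 16 to 0.23 on chromosome 8 in MEF KO, from -0.49 on chromosome 4 to 0.19 on chromosome 7 in MEF LD, and from -0.46 on chromosome 9 to 0.68 on chromosome 12 in MKF KO. Across members the log2 fold change and the median of the member's chromosome had a Spearman coefficient of 0.59 in MEF KO (78 members), 0.53 in MEF LD (78) and 0.72 in MKF KO (77), against 0.05 and 0.10 in ESC KO and LD (81). These coefficients are descriptions: both values come from the same libraries, and members on 1 chromosome share a median. The number of copies of each chromosome was not measured here.

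**Figure D3:**
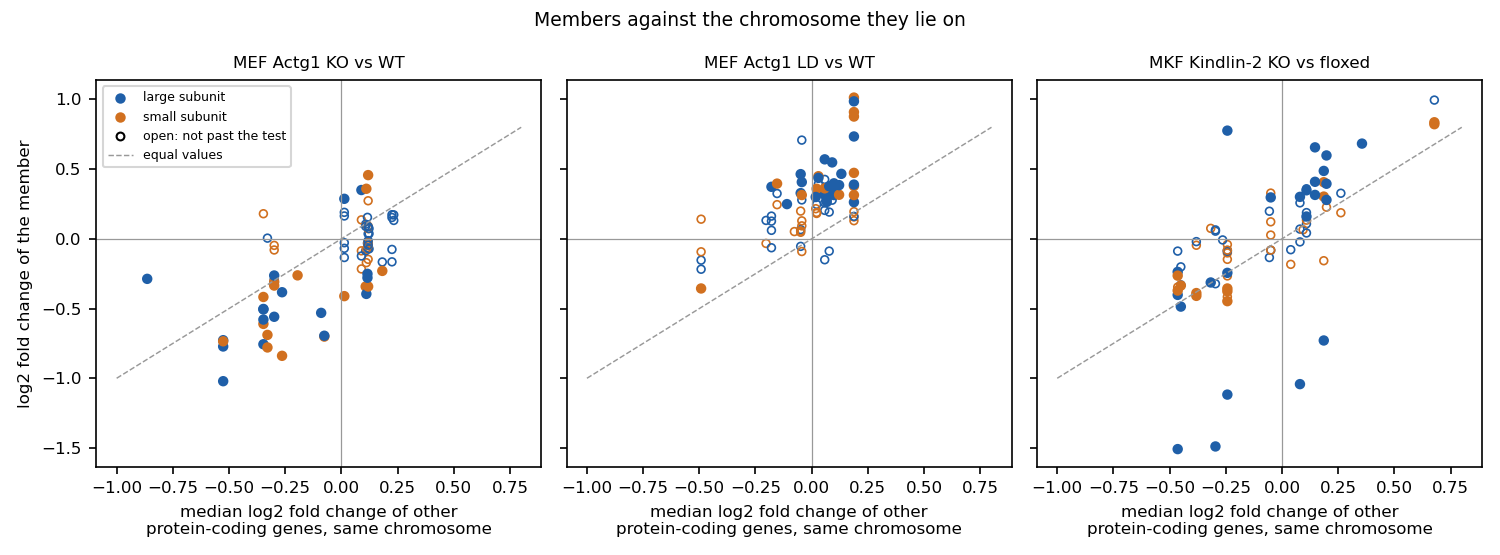
Log2 fold change of each member (vertical axis) against the median log2 fold change of the other protein-coding genes on its chromosome (horizontal axis) in 3 comparisons, filled where limma's adjusted p was under 0.05, with a dashed line where both are equal. The Spearman coefficients are 0.59, 0.53 and 0.72.

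In MEFs with the Actg1 KO, ribosomal protein genes were more often lower than higher than in WT. Of 78 members, 4 rose and 30 fell, against 20.6 percent of all 21589 genes tested that rose and 19.1 percent that fell. Among 3916 abundant protein-coding genes outside the set, 23.5 percent rose and 40.9 percent fell. The 38.46 percent of members that fell is near the share of these genes, and the 5.128 percent that rose is below it. The members were not held to the same mean of at least 1000, and some lie far below it, such as Rpl36al, at 17 and 16 in WT MEFs. The large subunit had 2 members that rose and 16 that fell of 47, and the small subunit 2 and 14 of 31. The median was -0.09 over members, 0.06 over all genes and -0.10 over the abundant ones. For members with a mean of at least 100, the median log2 ratio of library 1 over library 2 was -0.157 in WT and -0.032 in KO. The 2 WT libraries thus differed by more than the median difference between the groups. The members were the more uniform, with an SD of 0.32, against 1.21 over all genes and 0.66 over the abundant ones.

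Rpl35, which sits at the rim of the exit tunnel, fell most. It was at 3450 and 3364 in KO, against 6403 and 7462 in WT MEFs, a log2 fold change of -1.02 ± 0.08 (SE; limma's adjusted p = 4.3e-05). Both KO libraries were at about the same level and well below both WT libraries. Rps14, a protein of the small subunit's platform, was at 1631 and 1581 in KO, against 2773 and 2977 in WT (-0.84 ± 0.06, adjusted p = 4.04e-05). Rps29, a small zinc-binding protein of the small subunit, was at 245 and 275 in KO, against 406 and 490 in WT (-0.78 ± 0.13, adjusted p = 0.00204). Neither gene's groups overlapped. Rpl7a was at 4659 and 4620 in KO, against 7417 and 8466 in WT (-0.77 ± 0.07, adjusted p = 0.000118). Rpl29 was at 554 and 516 in KO, against 808 and 1010 in WT (-0.76 ± 0.12, adjusted p = 0.00173). Rps21 was at 691 and 598 in KO, against 939 and 1221 in WT (-0.73 ± 0.19, adjusted p = 0.017).

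Only 4 members rose in the KO. Rps16, which reaches the decoding site, was at 1273 and 1356 in KO, against 963 and 951 in WT MEFs (0.46 ± 0.07, limma's adjusted p = 0.00123). Rpl22, a large subunit protein that cells can do without because of its paralogue Rpl22l1, was at 6747 and 6566 in KO, against 4936 and 5526 in WT (0.35 ± 0.08, adjusted p = 0.0105). In both genes the KO libraries lay above the WT libraries. Rps26, which lies at the mRNA exit, rose by 0.36 (adjusted p = 0.0117) and Rpl19 by 0.29 (adjusted p = 0.0143) on the log2 scale.

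With 1 library left out, fewer members and fewer genes of the whole table passed the test. The number of members that fell was 8 without KO 1, 14 without KO 2, 17 without WT 2 and 26 without WT 1, where 30 fell with all libraries. The share of all genes that fell was 10.38, 11.01, 13.07 and 12.99 percent under the same settings. Without the variance trend 15 members fell, against 14.23 percent of all genes. All 4 members on chromosome 2 (Rpl7a, Rpl35, Rpl12 and Rps21) fell, where the 833 other genes of that chromosome had a median of -0.53 and 72.03 percent of them fell. Of 7 members on chromosome 9, 6 fell, beside a median of -0.35. The 7 chromosomes with a median beyond 0.25 in size carried 24 members, of which 19 fell, and the members elsewhere counted 4 that rose and 11 that fell. With each library centred by chromosome, 5 members rose and 25 fell, where 4776 of all 21589 genes rose and 3389 fell. Of the 30 members that fell before, 19 fell in both fits. Rpl35 stood at -0.50 (adjusted p = 0.000348), Rps14 at -0.55 and Rpl7a at -0.25 (adjusted p = 0.0188), while Rpl12 (-0.20, adjusted p = 0.064) and Rps21 (-0.21, adjusted p = 0.396) no longer passed the test.

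In MEFs with the full Actg1 locus deletion the set moved the other way. Of 78 members 36 rose and 1 fell, against 9.46 percent of all genes tested that rose and 12.6 percent that fell, and 19.1 and 23.1 percent of the abundant genes outside the set. Most of these calls ended in fits with a less shared estimate of the spread: 5 members rose without the variance trend, against 3.367 percent of all genes, and 11 rose with only the LD and WT libraries in the fit, against 3.238 percent, with the members' median unchanged by construction. In the full fit this was 24 of 47 large subunit genes and 12 of 31 small subunit genes that rose. The median was 0.28 over members, 0.31 for the large and 0.20 for the small subunit, where that of all genes and of the abundant ones was 0.00. In 68 of 78 members the fold change was above 0, and in 50 both LD libraries were above both WT libraries, which held for 26.3 percent of all genes.

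Rps3, which lines the mRNA entry and has a second role in DNA repair, rose most, to 4425 and 4095 in LD, against 2038 and 2182 in WT MEFs (1.01 ± 0.07, limma's adjusted p = 8.76e-05). Rpl18, a large subunit protein, was at 2244 and 2156 in LD, against 1091 and 1130 in WT (0.99 ± 0.06, adjusted p = 7.61e-05). Both had LD libraries far above WT, with close pairs of libraries. Rps13 was at 1294 and 1443 in LD, against 670 and 789 in WT (0.91 ± 0.10, adjusted p = 0.000773). Rpl27a was at 2981 and 2547 in LD, against 1588 and 1727 in WT (0.73 ± 0.09, adjusted p = 0.00117). These 4 genes all lie on chromosome 7. Rpl38, which lies on chromosome 11 and in mice affects translation of Hox mRNAs, was at 1564 and 1319 in LD, against 853 and 1097 in WT (0.57 ± 0.13, adjusted p = 0.0174).

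Chromosome 7 carries 14 members, more than any other, and 10 of them rose in LD, with a median of 0.38 where the 695 other genes of that chromosome had a median of 0.19 and 32.52 percent of them rose. None of the 5 members on chromosome 4 rose, beside a median of -0.49 over its 641 other genes. With each library centred by chromosome, 38 members rose and 1 fell, where 2161 of all 21589 genes rose and 2618 fell. Of the 36 members that rose before, 28 rose in both fits. The median over members was then 0.27. Rps3 stood at 0.82, Rpl18 at 0.79, Rps13 at 0.72 and Rpl27a at 0.54, all past the test (limma's adjusted p between 1.35e-05 and 0.00134). The number that rose was 7 without WT 1, 14 without LD 1, 18 without LD 2 and 21 without WT 2, where the share of all genes that rose was 3.451, 5.665, 4.952 and 3.293 percent, and the median stayed between 0.19 and 0.37.

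KO and LD MEFs differed directly in most of the set. In KO against LD 1 member rose and 50 of 78 fell, against 24.5 percent of all genes that rose and 20.7 percent that fell, and 28.3 and 41.7 percent of the abundant genes outside the set. Of the large subunit 31 of 47 fell, and of the small subunit 19 of 31. The median was -0.42, and both KO libraries were below both LD libraries for 59 members, which held for 31.8 percent of all genes. The number that fell was 26 without KO 1 and 28 without KO 2, where 12.41 and 12.92 percent of all genes fell. Centred by chromosome 50 members fell, of which 43 fell in both fits, where 3834 of all 21589 genes fell.

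Among the members with the largest differences, Rpl35 was at 8732 and 8691 in LD, far above its KO values, with a log2 fold change of -1.35 ± 0.08 (limma's adjusted p = 8.16e-06) for KO over LD. Rpl29 followed with -1.22 ± 0.12, from LD values of 1340 and 1160, then Rps3 with -1.16 ± 0.07, from KO values of 1957 and 1853. Rps14 differed by -1.16 ± 0.06, with LD values of 3661 and 3495. Rpl12, at the base of the stalk, was at 3712 and 3788 in KO, 8239 and 8119 in LD, and 5684 and 6776 in WT MEFs. Rpl7a was at 10049 and 9662 in LD, with -1.09 ± 0.07 for KO over LD. In all of these the KO libraries were lowest and the LD libraries highest, with Rps3 in KO close to WT. The one member that rose in KO against LD was Rpl22, at 6747 and 6566 in KO and 5002 and 4411 in LD (0.50 ± 0.08, adjusted p = 0.00154), and centred by chromosome it turned to -0.07 (adjusted p = 0.545).

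Set side by side, the comparisons with WT gave 14 members that fell in KO and rose in LD: Rpl7a, Rpl10a, Rpl12, Rpl14, Rpl17, Rpl29, Rpl32, Rpl35, Rpl35a, Rps4x, Rps7, Rps9, Rps14 and Rps27a. These were 17.95 percent of the members, where 2.46 percent of all genes tested and 6.74 percent of the abundant genes outside the set had the same pair of calls. Both comparisons use the same 2 WT libraries, so they are not independent, and a high or low WT library moves both the same way. The count is given as a description. A further 16 fell in KO and did not pass the test in LD, and 21 rose in LD and did not pass in KO. The 1 member that rose in both was Rps16, at 1273 and 1356 in KO and 1285 and 1374 in LD. For 24 members the libraries were ordered with both KO below both WT and both WT below both LD. This was 30.77 percent of the members, where it held for 8.57 percent of all genes and 17.2 percent of the abundant ones. Centred by chromosome the group again counted 14 members, but only 6 were the same: Rpl29, Rpl32, Rpl35, Rps4x, Rps7 and Rps27a. Rpl10a and Rpl35a, on chromosomes 17 and 16, turned to 0.04 and 0.57 in KO against WT.

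**Figure D4:**
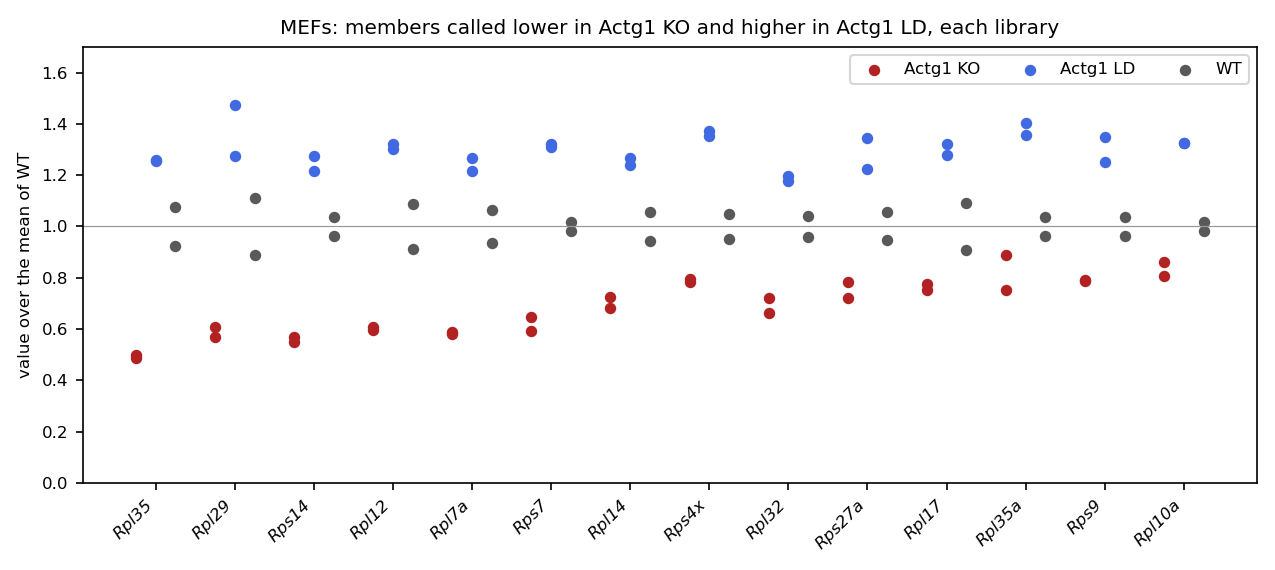
Normalised read count of each MEF library over the mean of the 2 WT libraries (vertical axis) for the 14 members called lower in Actg1 KO and higher in Actg1 LD, KO in red, LD in blue and WT in grey. The Rpl35 libraries lie at 3450 and 3364 counts in KO, 8732 and 8691 in LD, and 6403 and 7462 in WT, and its KO points are the lowest of the 14.

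The start sites of 5 of these genes show what the TOP motif looks like, and Rpl22, the member that rose in KO against LD, is set beside them. Each sequence runs from 30 bases before to 20 bases after the annotated start, 5' to 3' on the gene's strand, from RefSeq on build GRCm38.p6, with the longest run of pyrimidines in capitals. The 5 shown were picked for a run of at least 8 that begins at most 20 bases before the start site, so they do not stand for the group. Rpl22 has 2 annotated starts. The places are chr2:26910777-26910826 on the plus strand for Rpl7a, chr2:39005112-39005161 on the minus strand for Rpl35, chr9:120571487-120571536 on the plus strand for Rpl14, chr16:33056452-33056501 on the plus strand for Rpl35a, chr7:3704011-3704060 on the plus strand for Rps9, and chr4:152325696-152325745 and chr4:152324406-152324455 on the plus strand for Rpl22.
Rpl7a: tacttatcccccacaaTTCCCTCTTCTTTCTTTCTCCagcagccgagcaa
Rpl35: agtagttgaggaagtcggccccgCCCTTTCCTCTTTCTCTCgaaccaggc
Rpl14: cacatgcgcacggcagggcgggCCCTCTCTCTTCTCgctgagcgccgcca
Rpl35a: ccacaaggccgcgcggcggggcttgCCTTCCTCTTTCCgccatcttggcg
Rps9: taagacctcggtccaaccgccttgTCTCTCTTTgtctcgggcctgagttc
Rpl22, first start: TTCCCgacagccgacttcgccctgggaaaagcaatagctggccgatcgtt
Rpl22, second start: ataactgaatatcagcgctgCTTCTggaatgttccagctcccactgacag
The runs are 21 bases long in Rpl7a, 18 in Rpl35, 14 in Rpl14, 13 in Rpl35a and 9 in Rps9, and 5 at each start of Rpl22. Other genes of the group also had short runs in this window, at most 7 in Rpl10a, 7 in Rpl12 and 4 in Rps4x. Within 50 bases of a start Rpl22 holds a run of 14, so it is not without one.

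A run of at least 8 pyrimidines within 50 bases of a start, on the gene's strand, was found for 52 of the 61 members with a RefSeq promoter record, or 85.25 percent, against 39.27 percent of all 27025 genes. It did not set the opposed group apart: 8 of its 9 members with a record held one, and so did 43 of the 49 other members of the MEF table with a record. On either strand of the window from 250 bases before to 50 after the start, the letters CCGGAAG, which ETS factors such as Gabpa bind, were found in 40.98 percent of members, against 9.928 percent of all genes. AAGATGG, the core bound by Yy1, was in 14.75 percent of members and 7.278 percent of all genes, CACGTG, bound by Myc, in 9.836 and 8.093 percent, and TATAA in 27.87 and 27.99 percent. Overlapping matches of different motifs were each counted, and a match describes letters alone.

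Genes of ribosomal proteins whose symbols fall outside the rule also changed in MEFs. Rack1, a scaffold on the small subunit, was at 5883 and 6033 in KO, 13229 and 12900 in LD, and 9422 and 9611 in WT MEFs, with log2 fold changes of -0.68 in KO and 0.46 in LD (limma's adjusted p = 5.12e-05 and 0.000891). Rpl22l1, the paralogue of Rpl22, was at 108 and 113 in KO, 440 and 420 in LD, and 173 and 198 in WT, the widest difference between KO and LD among these genes (-1.95 ± 0.11, adjusted p = 9.5e-06). Its libraries did not overlap between any 2 groups. Fau, which encodes a small subunit protein fused to a ubiquitin-like protein, fell by 0.65 in KO and Rpl7l1 by 0.52, and Rps3a1 rose by 0.31 in LD. These values were not centred by chromosome. The chromosomes of Fau and Rpl7l1, 19 and 17, had medians of -0.33 and -0.30 over their other genes in KO. Those of Rack1 and Rpl22l1, 11 and 3, had medians of 0.01 and 0.18 there. Of the 7 genes outside the rule 4 fell in KO and 3 rose in LD. Of the 78 members 30 fell in KO and 36 rose in LD. Of all genes tested 19.1 percent fell in KO and 9.46 percent rose in LD, and of the abundant ones 40.9 and 19.1 percent. The count of 7 is too small to set apart from these shares.

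Functional groups within the set were counted apart, to be read against the 5.128 percent of all members that rose and 38.46 percent that fell in KO, and the 46.15 percent that rose in LD. Of the 3 stalk genes Rplp1 fell in KO (15146 and 16299, against 22059 and 22462 in WT), 1 rose in LD and all 3 fell in KO against LD. In that last comparison 50 of the 78 members and 41.7 percent of the abundant genes outside the set fell. Of the 9 genes at the exit tunnel 2 rose and 3 fell in KO, and 4 rose in LD. Of the 4 genes of the mRNA entry and decoding site 2 fell in KO and 2 rose in LD. Rpl5 and Rpl11, which bind 5S RNA, did not pass the test in KO (-0.07 and -0.12), and Rpl5 rose in LD (0.37, limma's adjusted p = 0.0112). Of the 18 genes mutated in Diamond-Blackfan anaemia, a human red cell disorder, 1 rose and 7 fell in KO, and 8 rose in LD. These 38.89 percent that fell and 44.44 percent that rose were near the shares of the whole set, and the other groups hold at most 9 genes.

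Other genes of ribosome supply were counted in the same way, beside the 20.6 percent of all genes that rose and 19.1 percent that fell in KO, and the 9.46 and 12.6 percent in LD (of the abundant genes 23.5, 40.9, 19.1 and 23.1 percent). Of 14 hosts of small nucleolar RNAs, which guide modification of ribosomal RNA and often have TOP motifs, 2 rose and 10 fell in KO, and 8 rose in LD. Zfas1 was at 173 and 164 in KO, 621 and 612 in LD, and 435 and 420 in WT MEFs, and Gas5 at 1607 and 1514 in KO, 3520 and 3199 in LD, and 2469 and 2850 in WT. Neither overlapped between groups. Of 20 other TOP mRNAs 4 rose and 6 fell in KO, and 7 rose and 1 fell in LD. Eef1a1, the elongation factor that delivers transfer RNA, had log2 fold changes of -0.29 in KO and 0.44 in LD, and Eef1g, of the same complex, of -0.65 and 0.38. Of 30 initiation factors 6 rose and 12 fell in KO, and 7 rose and 5 fell in LD.

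Of 60 ribosome assembly factors 13 rose and 20 fell in KO, and 19 rose and 6 fell in LD, and of 15 genes of RNA polymerase I, which makes ribosomal RNA, 3 rose and 8 fell in KO, and 3 rose in LD. Of 18 regulators of TOP mRNAs 7 rose and 7 fell in KO, and 8 rose and 5 fell in LD. Mtor itself was at 1325 and 1455 in LD, against 2486 and 2363 in WT MEFs (-0.80, limma's adjusted p = 0.000227), and did not pass the test in KO (0.02). Gabpa, one of the ETS factors, was at 1239 and 1246 in KO, 3587 and 4160 in LD, and 2699 and 2973 in WT, and its chromosome, 16, had the lowest median in KO. Myc, an activator of ribosome synthesis, was at 2573 and 2466 in LD, against 1591 and 1537 in WT (0.69, adjusted p = 0.000278). Of 17 p53 targets 6 rose and 1 fell in KO, and 7 rose and 2 fell in LD. Of 10 proliferation markers 1 rose and 5 fell in KO, and 2 rose and 4 fell in LD, and of 10 fibroblast markers 7 rose and 1 fell in KO. The values of single genes in these lists, here and in the paragraph before, are not centred by chromosome. Whether they go with the median of their chromosome was not tested. The part of these differences in the ribosomal protein genes was not tested.

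In ESCs most of the same lists held at most 1 gene called in a direction in each mutant, where 2.44 percent of all genes rose in KO and 5.19 percent in LD. Myc was at 235 and 184 in KO, 50 and 61 in LD, and 22 and 16 in WT ESCs, with log2 fold changes of 3.40 in KO and 1.51 in LD (limma's adjusted p = 0.000437 and 0.00736). Of 60 assembly factors 1 rose in KO, and 1 rose and 1 fell in LD, and of 30 initiation factors 1 fell in each mutant. Of 19 TOP mRNA regulators 1 rose in KO and 5, or 26.32 percent, in LD, and of 17 p53 targets 2 rose in KO and 3 in LD.

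In MKFs without Kindlin-2 the members changed in both directions. Of 77 members 17 rose and 18 fell, against 24.3 percent of all 18288 genes tested that rose and 24.9 percent that fell. Of 3112 abundant genes outside the set 37 percent rose and 35.3 percent fell. The share called was near that of all genes and below that of the abundant ones, but the members were not held to the same mean of at least 1000. The large subunit counted 13 that rose and 10 that fell of 46, with a median of 0.05, and the small subunit 4 and 8 of 31, with a median of -0.08. The SD of 0.46 was the widest of the 7 comparisons, against 1.34 over all genes and 0.76 over the abundant ones. The median over all members was -0.022. For members with a mean of at least 100, the median log2 ratio of library 1 over library 2 was 0.142 in KO and -0.115 in floxed MKFs. The libraries of each group thus differed by more than the median difference between the groups. Both KO libraries were above both floxed libraries for 30 of the 77 members and below them for 28. This held for 37 and 36.3 percent of all genes, so the counts are near the shares of the whole table.

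Rpl29, a small basic protein that mice can lack at the cost of growth, was at 554 and 648 in KO, against 1642 and 1773 in floxed MKFs (-1.51 ± 0.09, limma's adjusted p = 0.000332). Rpl30, a large subunit protein, was at 660 and 609 in KO, against 1802 and 1761 in floxed cells (-1.49 ± 0.06, adjusted p = 0.000113). Both were at near one level within each group and far apart between groups. Rpl13a, known in human cells for silencing inflammatory mRNAs, was at 161 and 127 in KO, against 299 and 324 in floxed cells (-1.12 ± 0.14, adjusted p = 0.00261). Rplp0, the base of the stalk and a common reference gene in quantitative PCR, was at 9016 and 8180 in KO, against 17625 and 17733 in floxed cells (-1.04 ± 0.05, adjusted p = 0.000229). Its groups lay far apart, and Rplp1 fell too (7894 and 6833, against 9144 and 10305), while Rplp2 did not pass the test (-0.08). Rpl22 was at 3646 and 3289 in KO, against 5365 and 6145 in floxed cells (-0.73 ± 0.09), and Rpl10 at 1710 and 1555, against 2259 and 2309 (-0.49 ± 0.06).

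Among the members that rose, Rps29 was at 636 and 500 in KO, against 323 and 308 in floxed MKFs (0.84 ± 0.13, limma's adjusted p = 0.00522). Rps7, a small subunit protein that also binds Mdm2, was at 4090 and 3485 in KO, against 2012 and 2265 in floxed cells (0.82 ± 0.10, adjusted p = 0.00248). These genes lie on chromosome 12, where the 351 other genes had a median of 0.68 and 80.91 percent of them rose. Rpl28 was at 1602 and 1545 in KO, against 849 and 993 in floxed cells (0.78 ± 0.08, adjusted p = 0.00182), on chromosome 7, where the median was -0.24. Rpl35a was at 1388 and 1148 in KO, against 741 and 833 in floxed cells (0.68 ± 0.11). Rpl37a and Rpl12 rose by 0.66 and 0.60. Each of these had both KO libraries above both floxed libraries. Rpl11, which with Rpl5 holds Mdm2 when ribosome assembly is disturbed, was at 1418 and 1119 in KO, against 850 and 950 in floxed cells (0.49 ± 0.13, adjusted p = 0.0312), and Rpl5 did not pass the test (-0.02).

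**Figure D5:**
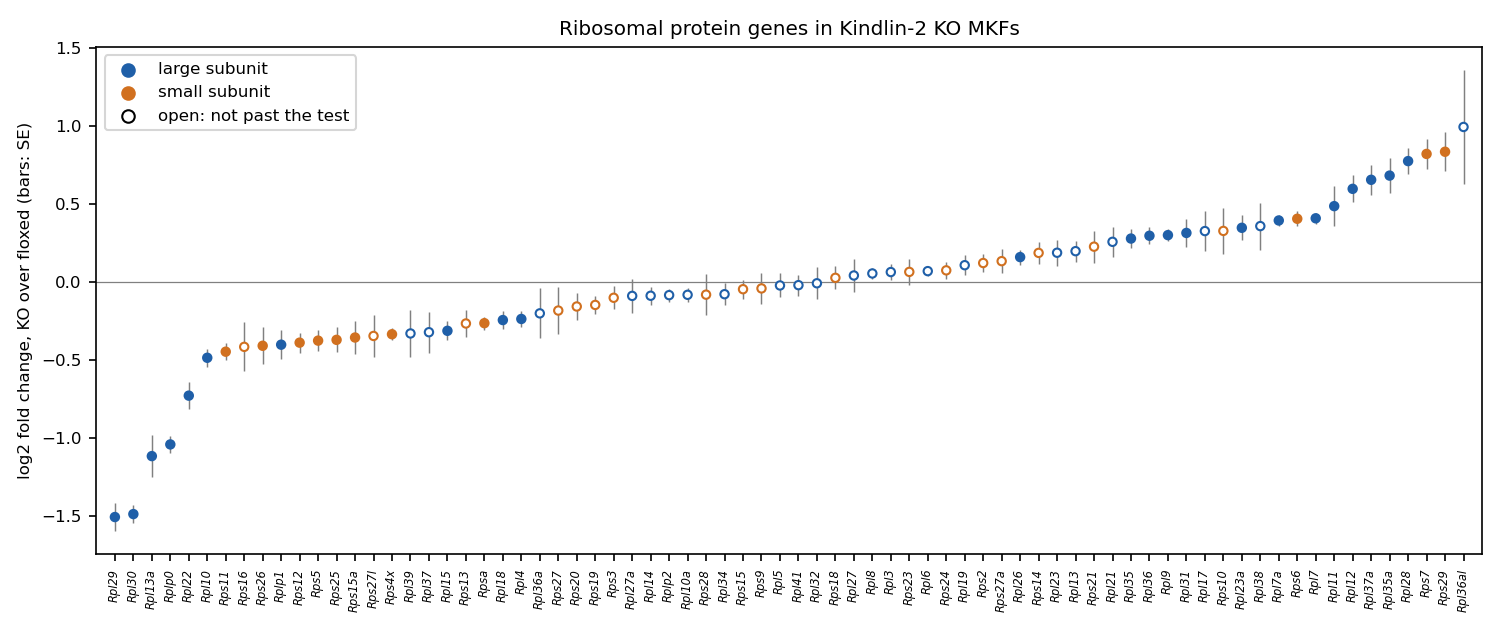
Log2 fold change with its SE (vertical axis) of 74 of the 77 members in Kindlin-2 KO over floxed MKFs, ranked from lowest to highest, large subunit in blue and small in orange, filled where limma's adjusted p was under 0.05. Rpl29, Rpl30, Rpl13a and Rplp0 lie at -1.51 to -1.04, apart from the even slope of the others.

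The MKF calls were also set against the chromosome medians. Of 7 members on chromosome 9 (median of other genes -0.46) 5 fell, of 4 on the X chromosome (-0.45) 2 fell, and of 4 on chromosome 2 (0.20) 3 rose. With each library centred by chromosome, 25 members rose and 7 fell, with a median of 0.11. Over all 18288 genes 4383 then rose and 4193 fell, with a median of 0.02. Of the 17 members that rose before, 11 rose in both fits, and of the 18 that fell, 6 fell in both. Rpl30 (-1.19), Rplp0 (-1.11), Rpl29 (-1.06), Rpl22 (-0.92) and Rpl13a (-0.86) fell in both, and Rpl28 rose in both (1.03; limma's adjusted p = 4.77e-06). Rps29 (0.16, adjusted p = 0.259), Rps7 (0.15, adjusted p = 0.152) and Rpl10 (-0.04, adjusted p = 0.504) did not pass the test there, and Rpl4 and Rpsa were called in opposite directions in the 2 fits. With 1 library left out, 3 members rose and 7 fell without KO 1, 4 and 5 without KO 2, 0 and 1 without floxed 1, and 2 and 1 without floxed 2. Over all genes the shares that rose and fell dropped as well, to 9.596 and 11.42 percent without KO 1, 9.307 and 11.01 without KO 2, 6.234 and 5.277 without floxed 1, and 6.567 and 5.135 without floxed 2. Without the variance trend 9 members rose and 8 fell, against 18.86 and 19.32 percent of all genes. Of 40 members with at least 50 percent of windows shared 13 rose and 8 fell, and of the 37 others 4 rose and 10 fell.

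Of 60 ribosome assembly factors 43 rose and 4 fell in the MKF KO, or 71.67 and 6.667 percent, beside 24.3 and 24.9 percent of all genes and 37 and 35.3 percent of the abundant ones. Gnl3, a nucleolar GTPase, was at 3771 and 3580 in KO, against 1478 and 1575 in floxed MKFs (1.27 ± 0.05, limma's adjusted p = 0.000134), and Wdr12 at 1863 and 1856, against 898 and 938 (1.02). Nhp2, of the box H/ACA particles, and Mdn1, a large ATPase of 60S maturation, rose by 0.93 and 0.90. Of 15 RNA polymerase I genes 7 (46.67 percent) rose and 1 fell, with Polr1e at 551 and 574 in KO, against 234 and 257 in floxed cells (1.19). Of 30 initiation factors 14 (46.67 percent) rose and 6 (20 percent) fell, among them Eif2s1 (1.08) and Eif6 (0.94), which keeps free 60S subunits from joining. Whether these lists differ from the set was not tested. Their counts and values were not centred by chromosome, and whether they go with the chromosome medians in MKFs was not tested.

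Of 20 other TOP mRNAs 4 rose and 11 fell, or 20 and 55 percent, beside the same shares of all and of abundant genes, and the list was not tested for its direction. Tpt1, a growth-associated protein, was at 11092 and 10919 in KO, against 17189 and 17842 in floxed MKFs (-0.67, limma's adjusted p = 0.000236), Eef2, the translocase, at 27021 and 27806, against 40176 and 40765 (-0.56), and Eif3e and Eif3f fell by 0.58 and 0.56. Of the genes outside the naming rule Rack1, Rps3a1 and Rpl7l1 rose by 0.26, 0.32 and 0.43, and Fau fell by 0.14. Of 14 small nucleolar RNA hosts 4 rose and 2 fell, and of 19 TOP mRNA regulators 7 rose and 7 fell. Of 18 p53 targets 12 rose and 3 fell, with Cdkn1a, a cell cycle inhibitor, at 755 and 723 in KO, against 65 and 67 in floxed cells (3.46, adjusted p = 4.76e-05). Of 10 proliferation markers 3 rose and 6 fell, all 6 epithelial markers rose, and of the 6 fibroblast markers listed 1 rose and 5 fell. Their part in the ribosomal protein genes was not tested. The counts and values of the genes outside the set in this paragraph were not centred by chromosome. Whether they go with the median of their chromosome in MKFs was not tested.

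Over all 7 comparisons 12 members passed the test in none: Rpl8, Rpl21, Rpl23, Rpl24, Rpl27, Rpl36al, Rpl37, Rpl3l, Rps19, Rps20, Rps27l and Rps28. These were 14.81 percent of the members, where 40.9 percent of all genes tested and 4.57 percent of the abundant genes outside the set passed in none. Centred by chromosome, 3 of the 12 passed in at least 1 comparison. Rpl8 then stood at -0.29 in MEF KO, -0.17 in MEF LD and 0.36 in MKF KO, and Rps20 and Rps27l passed too. The 12 include Rpl24, Rpl3l and Rpl36al at the lowest levels per kilobase, and also Rpl8, at the peptidyl transferase centre, which was among the highest in floxed MKFs. Rpl36al was at 21 and 12 in KO, against 7 and 8 in floxed MKFs, a log2 fold change of 0.99 that did not pass (limma's adjusted p = 0.0791).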

How the data were processed

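RNA-seq libraries of 3 mouse cell types, 16 in all, were analysed from 3 deposited tables, 1 per cell type. Each column was mapped to its sample by name, and 0 columns were left unused. Per the labels' protocols, RNA was extracted with a column kit with DNase digestion, and libraries were made with a stranded total RNA kit. Per the submitters' processing notes, the tools included featureCounts 1.6.0, STAR 2.5.3a, FastQC and DESeq2 1.14.1, and the builds were mm10 and GRCm38. The deposited values are a score: normalised read counts that the authors divided by 1 factor per library and rounded to whole numbers, each table separately. They are not raw counts, so no count model was used, and the read depth behind them is unknown.

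Values were analysed as log2(value + 1) with limma 3.58.1 in R 4.3.3, with group means over all groups of a table, a variance trend, genes with a mean of at least 1, and Benjamini-Hochberg adjustment over all genes tested. Rose and fell mean an adjusted p under 0.05, and fold changes on this scale understate those of low genes. An SE is limma's moderated standard error, and an SD is between 2 libraries. Scripts were tested on simulated data. Exact permutation tests used scipy 1.17.1. Shared windows of 50 bases and exon lengths were computed from the reference annotation, and promoters came from RefSeq on GRCm38.p6.

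The members and lists were chosen with earlier results of these data known. Named genes were the members called in a comparison (beyond 12, the 6 that rose most and the 6 that fell most), the 5 highest and 5 lowest per kilobase in controls, the genes of each list by values or counts, up to 4 called genes per pathway list, a member on chromosome 8 in ESCs and the disrupted genes; some genes that this rule names are not reported here. Other names were chosen after their values were seen.

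Libraries of one number deviated together from their group means in ESCs, with correlations over all genes of 0.678 for KO and WT, 0.349 for LD and WT and 0.492 for KO and LD. Over the members the correlations were 0.844, 0.192 and 0.18 in the same order. For this set the pairing was thus weak between LD and the other groups, which limits the blocked fit there. The labels do not say what the numbers mark, so this pairing comes from the data, and the fit with the number as a block stands beside the ESC results.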

Additional observations from a re-analysis of the deposited data

Results flagged for a closer look

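In MEFs 14 members fell in KO and rose in LD against the shared WT libraries. They were chosen by these opposite calls, so comparing KO with LD on the same libraries largely restates the choice and is given as a description. Of these, Rpl35 (-1.35), Rpl29 (-1.22), Rps14 (-1.16), Rpl12 (-1.12), Rpl7a (-1.09) and Rps7 (-1.08) differed most by log2 fold change of KO over LD. With each library centred by chromosome they stood at -0.73, -0.93, -0.76, -0.50, -0.46 and -0.95.

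In ESCs Rpl39l was higher in both KO libraries than in both LD libraries, with a log2 fold change of 1.10 (limma's adjusted p = 0.0053). No other member passed the test in that comparison, and Rpl39l did not pass it with any 1 of the 4 libraries left out. Its log2 fold change was then between 1.04 and 1.17 (adjusted p between 0.0977 and 0.188), and of all 23054 genes at most 24 rose and 4 fell in those fits.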

How the results depend on the processing

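With the library number as a block, a pairing that the data show in ESCs alone, 0 members rose and 3 fell in ESC KO. The counts that rose and fell were 3 and 5 in ESC LD, and 1 and 1 in ESC KO against LD. In MEFs they were 5 and 30 in KO, 35 and 1 in LD, and 1 and 48 in KO against LD, and in MKFs 14 and 13. Every median was as before. In MEFs and MKFs the numbers do not pair the libraries (correlations of -0.211, -0.302 and 0.214, and -0.0952). Over all 23054 ESC genes 921 rose and 929 fell in KO with the block, and 1784 and 1943 in LD. Of 21589 MEF genes 4217 rose and 3942 fell in KO, and 1767 and 2486 in LD. In MEF KO against LD 5099 rose and 4322 fell, and of 18288 MKF genes 3696 and 3800. Without 1 library at a time, no ESC member passed in any comparison (0), while the ESC medians ran from -0.31 to 0.20 in KO, -0.27 to 0.29 in LD and -0.21 to 0.14 in KO against LD, and the shares of summed values differed by -0.505 to 0.178, -0.374 to 0.309 and -0.305 to 0.043 percentage points. In MEF KO 1 to 4 rose and 8 to 26 fell (median -0.234 to -0.028, share -0.261 to -0.139), in LD 7 to 21 rose and 0 to 1 fell (0.19 to 0.37, 0.159 to 0.281), in KO against LD 0 to 1 rose and 26 to 46 fell (-0.48 to -0.34, -0.451 to -0.389), and in MKFs 0 to 4 rose and 1 to 7 fell (-0.10 to 0.06, -0.008 to 0.058). Of the called members reported here, 0 changed sign when 1 library was left out. Where the libraries of the 2 groups do not overlap, leaving 1 out cannot turn the sign, so for such members this says nothing on stability. Without the variance trend 0 fell in ESC KO, 1 in ESC LD and 0 rose in ESC KO against LD; 1 rose and 15 fell in MEF KO, 5 rose and 0 fell in MEF LD, and 9 rose and 8 fell in MKFs. With only the libraries compared 0 fell in ESC KO, 2 in ESC LD, 0 rose in ESC KO against LD, and 11 rose and 0 fell in MEF LD. Robust moderation gave 1 that rose in ESC LD and 1 that fell in ESC KO against LD, and a mean of at least 10 gave 1 that rose in ESC LD. Scaling without genes over 1 percent of values gave 8 that rose and 26 that fell in MEF KO, with the median of all genes moved to 0.14, and 4 that rose with a median of -0.32 in MEF KO against LD; scaling by the median protein-coding gene gave 26 that rose in MKFs. As shares of protein-coding values, the difference was 0.29 in MEF LD, -0.54 in MEF KO against LD and -0.02 percentage points in MKFs. The remaining alternatives were chosen after seeing the data. Without paralogues and Rpl24, 2 fell in ESC LD; among members with under 50 percent of windows shared, 3 rose in MEF KO and 4 in MKFs. Centred by chromosome, 1 member fell in ESC KO, and 7 fell in MKFs with a median of 0.11. In that fit 565 of all 23054 genes fell in ESC KO and 4193 of 18288 in MKFs. Rpl10a (0.036) and Rpl35a (0.57) in MEF KO, Rpl22 (-0.074) and Rpl35a (0.21) in MEF KO against LD, and Rplp1 (0.051), Rps25 (0.082), Rpl15 (0.007), Rps4x (0.10), Rpl4 (0.22), Rpsa (0.19) and Rpl18 (0.008) in MKFs changed sign, since the median of their chromosome was subtracted. The cause of the other shifts was not tested. Of 314 values under settings other than leaving 1 library out, 282 stayed within the bounds set for a stable value. With 1 library left out, 75 of 112 values stayed within them and 37 moved. With 2 libraries a group and unknown depth, calls of single members rest on few degrees of freedom.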
